A study of Mus musculus with 12 samples.

Results

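The genes described here are 9 collagen chains of the interstitial matrix: Col1a1, Col1a2, Col3a1, Col5a1, Col5a2, Col6a1, Col6a2, Col6a3 and Col12a1. They were taken by gene symbol from the 24054 genes listed in each library, and all 9 were among the 14201 genes that passed the filter on low counts. Their expression was measured by RNA sequencing in 4 groups of prostate epithelial cells sorted from C57BL/6 mice: basal cells at 3 months (young), basal cells at 24 months (old), luminal cells at 3 months and luminal cells at 24 months. Each group had 3 libraries, and each library was made from the cells of 2 mice of the same age. All mice were of one strain, and the labels give no allele, transgene or treatment.

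Interstitial collagens are secreted by mesenchymal cells such as fibroblasts and smooth muscle cells and form the scaffold of the prostate stroma, whereas epithelial cells rest on a basement membrane made of type IV collagen and laminins. Type I and type III chains make the bulk of the fibrils, type V chains start the fibrils and limit their diameter, type XII collagen binds to the fibril surface, and type VI collagen forms beaded microfilaments between fibrils and cells. Collagen messages in a sort of epithelial cells can come from the sorted cells or from stromal RNA carried along. For this reason the level of each gene is given together with markers of stromal cells in the same libraries.

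The 12 libraries held 20012691 to 27663450 reads (summed expected counts) and 11706 to 13744 genes above 0. The sorted cell types matched their labels: the basal keratin Krt5 had a mean of 2410 CPM (counts scaled to a common library size) in young basal and 7.80 CPM in young luminal cells, and the luminal keratin Krt8 had 2260 and 4020 CPM. All 9 tested luminal markers were called higher and all 9 basal markers lower in luminal cells at both ages. The reads were copies of fewer RNA fragments. An estimate from genes seen in 1 library of a group and in few others gave 15.93 to 73.5 reads for each distinct fragment, with the highest value in young basal replicate 1 and the lowest values, 15.93 and 16.94, in old basal replicates 1 and 3. The numbers that follow therefore rest on far fewer molecules than their read counts show. In luminal cells Krt8 was called higher with age (4020 to 5350 CPM, edgeR adjusted p = 0.0304), as was 1 basal marker, the keratin Krt15 (136 to 433 CPM, adjusted p = 0.00128). The Krt8 call was lost in 5 of 13 other settings, namely without any 1 of the young luminal libraries or old luminal replicates 1 or 2 (adjusted p up to 0.146).

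By GENCODE M21 on GRCm38 (mm10), all 9 are protein-coding genes. Col3a1 (chr1:45311538-45349706, plus strand) and Col5a2 (chr1:45374321-45503282, minus strand) lie 24.6 kb apart, and Col6a3 is on the same chromosome (chr1:90765923-90843971, minus strand). Col6a1 (chr10:76708792-76726168) and Col6a2 (chr10:76595762-76623630), both on the minus strand, lie 85.2 kb apart. Col1a1 is at chr11:94936224-94953042 and Col1a2 at chr6:4504814-4541544, both on the plus strand. Col5a1 (chr2:27886425-28039514, plus strand) shares exon sequence with 2810430I11Rik and Gm13372 on the opposite strand, so that its reads cannot be separated from theirs where the strand setting of the counting is not known. Col12a1 is at chr9:79598991-79718831 on the minus strand.

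The promoter sequences of 3 of the genes are shown. All 3 were lower in old than in young libraries, but Col6a3 differed in pattern from Col3a1 and Col6a1 between the cell types. The basal and luminal libraries of an age overlapped for Col3a1 and Col6a1, and Col6a3 was called higher in luminal cells. No promoter entry was found for Col1a1, Col5a2 or Col12a1. Each is the part of the RefSeq promoter window (GRCm38.p6) upstream of both the RefSeq and the GENCODE start of the gene (for Col6a3 the 2 starts differ, so the sequence does not abut the GENCODE gene), 5′ to 3′ on the gene's strand, with motif matches in capitals.
Col3a1 (chr1:45311288-45311537, plus strand): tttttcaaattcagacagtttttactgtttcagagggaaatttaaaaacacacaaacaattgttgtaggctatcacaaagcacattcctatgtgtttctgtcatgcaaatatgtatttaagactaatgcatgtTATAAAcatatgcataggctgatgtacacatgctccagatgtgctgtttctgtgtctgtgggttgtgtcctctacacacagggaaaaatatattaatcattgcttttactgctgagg
Col6a1 (chr10:76726169-76726294, minus strand): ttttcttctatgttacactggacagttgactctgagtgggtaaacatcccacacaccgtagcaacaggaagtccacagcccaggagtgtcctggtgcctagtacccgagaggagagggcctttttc
Col6a3 (chr1:90844002-90844221, minus strand): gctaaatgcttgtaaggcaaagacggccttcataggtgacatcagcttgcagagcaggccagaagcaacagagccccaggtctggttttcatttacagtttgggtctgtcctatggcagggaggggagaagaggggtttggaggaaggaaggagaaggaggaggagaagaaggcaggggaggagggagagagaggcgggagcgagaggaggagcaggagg
Both strands were searched for the box that binds factor NF-Y, spelled CCAAT, and for a common core promoter element, spelled TATAAA. The search also took the binding letters of factor Sp1, GGGCGG, and those of the dimer of Fos with Jun, TGACTCA. No matches overlapped in these windows. Col3a1 held 1 TATAAA in 250 bases, a motif found in 12.4% of the 32851 RefSeq promoter windows trimmed to the same length. None of the 4 motifs was found in the 126 bases of Col6a1 or the 220 bases of Col6a3, where GGGCGG occurred in 13.5% and 28.5% of windows of these lengths. The window of Col5a1, searched but not shown, held 2 GGGCGG in 206 bases, a motif found in 25.8% of windows of that length. These matches describe the letters of the windows and say nothing of which factors bind there.

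Levels are first given by library. Col1a1 and Col1a2 encode the chains of type I collagen, the main fibril of connective tissue. In young basal cells Col1a1 was at 42.3, 31.0 and 65.8 CPM in replicates 1, 2 and 3, and in old basal cells at 0.848, 7.46 and 9.66 CPM. In young luminal cells it was at 64.4, 43.0 and 83.8 CPM, and in old luminal cells at 3.57, 8.98 and 7.30 CPM. Every young library was above every old library in both cell types, and the third replicate was the highest young library of each. Col1a1 fell with age in basal cells, from 46.4 ± 17.8 to 5.99 ± 4.59 CPM (mean ± SD, n = 3 each), by 2.95 on the log2 scale (SE 0.64, edgeR adjusted p = 0.0372). It fell in luminal cells from 63.7 ± 20.4 to 6.62 ± 2.77 CPM, with a log2 change of -3.27 (SE 0.64, edgeR adjusted p = 0.0183). The young means were 7.74-fold and 9.63-fold the old means. In bulk samples such as these, fewer cells of a type and less RNA per cell cannot be told apart.

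Col1a2 had 52.8, 28.6 and 69.1 CPM in the young basal and 3.49, 17.6 and 11.9 CPM in the old basal libraries. The luminal values were 61.6, 30.2 and 79.4 CPM at 3 months and 0.238, 5.28 and 19.7 CPM at 24 months. The groups did not overlap, but the old libraries were widely spread: Col1a2 rested on 6 reads in old luminal replicate 1 and on 418 reads in replicate 3. Its log2 change with age was -2.19 (SE 0.91) in basal cells and -2.77 (SE 0.93) in luminal cells, and neither passed (edgeR adjusted p = 0.287 and 0.212). Without old luminal replicate 3 the luminal change passed at an edgeR adjusted p of 0.0367.

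Col3a1 encodes type III collagen, which is mixed into type I fibrils of extensible tissues. Its young basal libraries held 28.9, 25.4 and 63.5 CPM and its old basal libraries 6.88, 16.8 and 12.6 CPM. In luminal cells the values were 35, 33.5 and 72.7 CPM at 3 months and 1.55, 12.7 and 13.4 CPM at 24 months. As with the type I chains, the third young replicate of each cell type stood highest and no old library reached a young one. The log2 changes were -1.70 (SE 0.63) in basal cells and -2.35 (SE 0.65) in luminal cells, with edgeR adjusted p = 0.23 and 0.0989.

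Col5a1 and Col5a2 encode the chains of type V collagen, a minor fibril component. Col5a1 was at 22.7, 13.2 and 16 CPM in young basal and at 1.32, 13.7 and 2.96 CPM in old basal cells. It was at 12.3, 10.9 and 8.72 CPM in young luminal and at 1.47, 5.28 and 2.87 CPM in old luminal cells. This was the one gene of the 9 whose basal age groups overlapped, because old basal replicate 2 lay above young basal replicate 2. Its log2 changes of -1.53 (SE 0.78) and -1.73 (SE 0.78) did not pass (edgeR adjusted p = 0.391 and 0.446).

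Col5a2 was at 14.7, 10.4 and 10.1 CPM in young basal libraries and at 1.93, 3.38 and 1.11 CPM in old ones. Young luminal libraries held 17.2, 9.94 and 11.3 CPM and old ones 0, 1.26 and 3.35 CPM. The groups were apart, and old luminal replicate 1 had no Col5a2 read. The log2 changes of -2.45 (SE 1.11) and -3.06 (SE 1.14) did not pass (edgeR adjusted p = 0.337 and 0.288).

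Col6a1, Col6a2 and Col6a3 encode the chains that assemble together into type VI collagen. Col6a1 was at 13.5, 6.44 and 20.7 CPM in young basal and 1.27, 5.34 and 5.96 CPM in old basal cells. In luminal cells it was at 22.2, 16.3 and 43.4 CPM at 3 months and at 2.06, 3.10 and 6.79 CPM at 24 months. Young basal replicate 2 was close to the old libraries, while the luminal groups were well apart. The log2 changes were -1.69 (SE 0.69) in basal cells and -2.78 (SE 0.71) in luminal cells (edgeR adjusted p = 0.276 and 0.0743), and the luminal one passed without old luminal replicate 3 (0.0492).

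Col6a2 had 8.97, 11.7 and 23.5 CPM in the young and 0, 1.75 and 5.22 CPM in the old basal libraries. Its luminal values were 10.5, 16.5 and 24.4 CPM at 3 months and 5.63, 1.59 and 9.85 CPM at 24 months. Its luminal groups came closest to each other of all 9 genes, with 9.85 CPM in the highest old and 10.5 CPM in the lowest young library. The log2 changes were -2.66 (SE 1.12) in basal and -1.59 (SE 1.07) in luminal cells (edgeR adjusted p = 0.297 and 0.704).

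Col6a3, the largest of the type VI chains, had a pattern of its own. In young luminal libraries it was at 206, 310 and 519 CPM and in old luminal libraries at 40.6, 34.6 and 55.6 CPM. In young basal libraries it was at 18.3, 13.8 and 10.5 CPM and in old basal libraries at 0.660, 4.32 and 5.50 CPM. Every luminal library, old ones included, was above every basal library. With age Col6a3 fell in luminal cells from 345 ± 159 to 43.6 ± 10.8 CPM (n = 3 each), 7.91-fold, with a log2 change of -2.98 (SE 0.48, edgeR adjusted p = 0.00465). This call held under each of the 13 other settings tried, whole libraries left out included, with adjusted p from 2.77e-09 to 0.0301. In basal cells the log2 change was -2.02 (SE 0.50, edgeR adjusted p = 0.0649).

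Col12a1, a fibril-associated collagen, was the opposite case. Its young basal libraries held 77.5, 68.6 and 65.9 CPM and its old basal libraries 14.8, 15.5 and 31.9 CPM, whereas young luminal libraries held 5.24, 7.66 and 9.11 CPM and old luminal libraries 2.06, 1.55 and 3.20 CPM. Every basal library was above every luminal library, and within each cell type every young library was above every old one. Col12a1 fell with age in basal cells from 70.7 ± 6.03 to 20.7 ± 9.63 CPM, with a log2 change of -1.77 (SE 0.37, edgeR adjusted p = 0.0345), and in luminal cells from 7.33 ± 1.96 to 2.27 ± 0.846 CPM, with a log2 change of -1.69 (SE 0.39, edgeR adjusted p = 0.0399). The luminal value rested on an estimated 17.9 distinct fragments in the young and 4.5 in the old libraries together, and its call was lost on fragment-equivalent counts (adjusted p = 0.15).

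**Figure D1:**
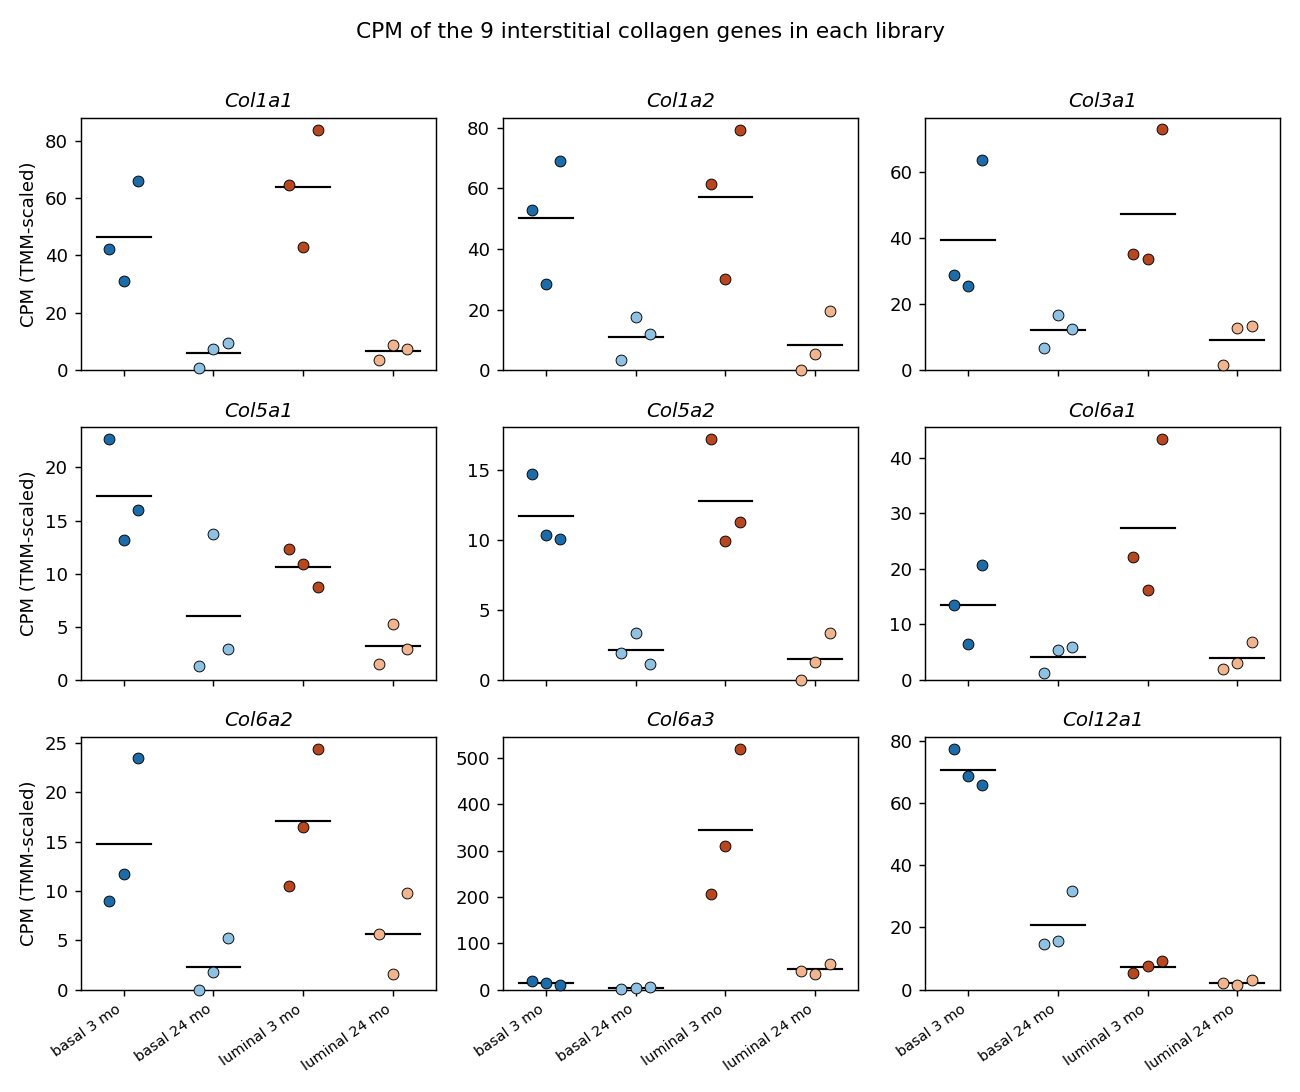
CPM (linear axis from 0, scaled between libraries) of each of the 9 genes in the 12 libraries; each point is 1 library of cells from 2 mice, drawn in replicate order within its group, and the line is the mean of 3 libraries. Within a cell type all young libraries lie above all old ones for every gene, except in basal Col5a1, where single libraries overlap. Col6a3 reaches 519 CPM in luminal cells, and Col12a1 reaches 77.5 CPM in basal cells.

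With age, all 9 genes had a log2 change below 0 in basal cells (median -2.02) and all 9 in luminal cells (median -2.77), against medians of 0.09 and -0.02 over all 14201 genes tested. In basal cells 2 of the 9 were called lower, Col1a1 and Col12a1, where 0.225% of all genes were called lower. In luminal cells 3 of the 9 were called lower, Col1a1, Col6a3 and Col12a1, where 0.394% of all genes were called lower. At an unadjusted p under 0.05 there were 8 of 9 in each cell type. Of the 14201 genes tested, 2013 in basal and 1526 in luminal cells were under it, in either direction. All 3 old libraries were below all 3 young libraries for 8 of the 9 genes in basal and for 9 of 9 in luminal cells, which was the case for 5.68% and 9.6% of all genes tested. Scaling by DESeq2's size factors moved the median of all genes from 0.09 to 0.00 in basal cells and left all 9 log2 changes below 0 in both cell types.

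The luminal Col6a3 call held with any 1 library left out, whereas each of the other age calls was lost in some of these fits. In basal cells the Col1a1 call was lost without young replicate 3 (edgeR adjusted p = 0.08) or old replicate 2 (0.0982), and when the 2 basal groups were fitted alone (0.0681). The basal Col12a1 call was lost without each young library (0.0553 to 0.0734) and without old replicates 1 (0.121) and 2 (0.119). In luminal cells the Col1a1 call was lost without young replicate 3 (0.0662) or old replicate 1 (0.0843), and the Col12a1 call without young replicate 2 (0.0965) or 3 (0.149) and old replicate 1 (0.141) or 2 (0.163). The luminal Col12a1 call was also lost when the 2 luminal groups were fitted alone (0.405) and with limma on log2(TPM + 1), where the log2 change was -0.53 (limma adjusted p = 0.603). The number of the 9 genes called lower thus ranged from 0 to 2 in basal and from 1 to 5 in luminal cells when 1 library was left out. In each of these fits all 9 log2 changes stayed below 0.

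**Figure D2:**
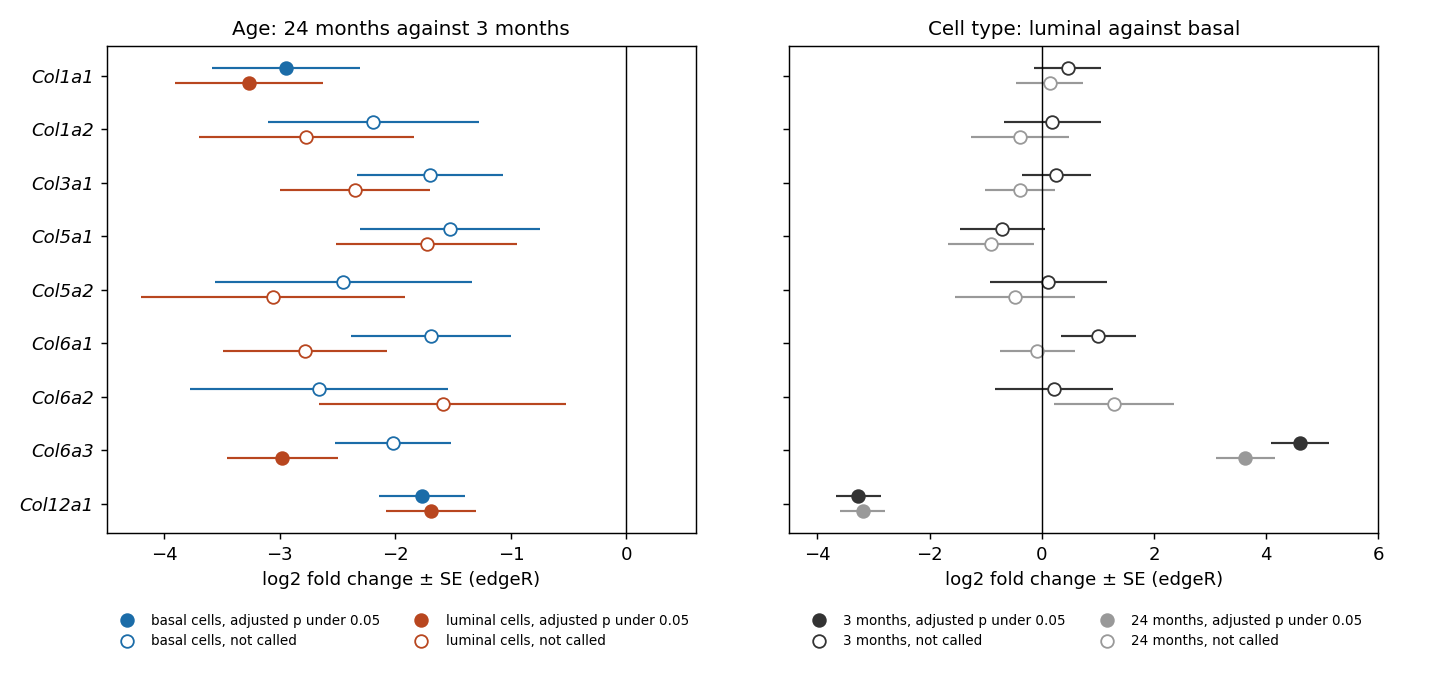
Log2 fold changes ± SE from the edgeR fit for the 9 genes, with age on the left (24 against 3 months, in basal and luminal cells) and luminal against basal cells on the right (at 3 and 24 months); filled points have an adjusted p under 0.05. All 18 age values lie below 0 and 5 of them are called, and on the right the called values are those of Col6a3 (4.60 and 3.63) and Col12a1 (-3.27 and -3.19).

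The age changes of the 2 cell types were also compared with each other. The difference of the log2 changes (luminal minus basal) ran from -1.09 (SE 0.95) for Col6a1 to 1.07 (SE 1.49) for Col6a2, and 0 of the 9 genes were called by edgeR, with adjusted p from 0.63 to 1 and 0 at an unadjusted p under 0.05. DESeq2 and limma also called 0, and 0.817% of all genes were called in either direction. The standard errors of the 9 differences were 0.54 to 1.49, so they do not show that the cell types responded alike.

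Between the cell types, 2 of the 9 genes differed, in opposite directions and at both ages. Col6a3 was 24.3-fold higher in luminal cells at 3 months (log2 4.60, SE 0.52, edgeR adjusted p = 5.62e-06) and 12.5-fold higher at 24 months (log2 3.63, SE 0.52, adjusted p = 5.69e-05). Col12a1 was 9.64-fold lower in luminal cells at 3 months (log2 -3.27, SE 0.40, edgeR adjusted p = 1.07e-05) and 9.13-fold lower at 24 months (log2 -3.19, SE 0.40, adjusted p = 1.71e-05). The 4 calls held under every other setting tried. Calls were common in this comparison: of all genes, 19.0% were called higher and 18.6% lower at 3 months, and 15.7% higher and 19.7% lower at 24 months. One gene higher and 1 lower of 9 is not above this background. Among the other 7, log2 differences ran from -0.70 (Col5a1) to 1.01 (Col6a1) at 3 months, with SE of 0.59 to 1.05 and edgeR adjusted p from 0.257 to 0.951, and from -0.90 (Col5a1) to 1.29 (Col6a2) at 24 months.

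The genes Col1a1, Col1a2, Col3a1, Col5a1, Col5a2, Col6a1 and Col6a2 had group means of the same order in both sorts, for instance 46.4 and 63.7 CPM for Col1a1, or 39.3 ± 21 and 47.1 ± 22.2 CPM for Col3a1, in young basal and young luminal cells. Their sum had a range of 127 to 269 CPM in the young and 15.7 to 66.0 CPM in the old basal libraries, and of 160 to 324 CPM in the young and 14.5 to 63.3 CPM in the old luminal ones. The sum of these 7 genes was set apart from Col6a3 and Col12a1 after their values were seen, and it has no test.

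Levels of different genes can be compared only per length, in TPM (transcripts, scaled to the same total in every library). In young basal cells the order was Col1a1 (20.2 ± 8.46 TPM), Col1a2 (19.9 ± 8.63), Col3a1 (14.4 ± 8.28), Col12a1 (12 ± 0.806), Col6a2 (8.14 ± 4.58), Col6a1 (7.01 ± 3.90), Col5a1 (4.12 ± 1.12), Col5a2 (3.56 ± 0.706) and Col6a3 (2.98 ± 0.876). No neighbours in this order differed by more than the larger of their SDs. In young luminal cells Col6a3 led with 51.8 ± 23.9 TPM, beyond the spread of the next gene, Col1a1 (19.5 ± 6.24). Col1a2 (15.9 ± 6.94), Col3a1 (12.1 ± 5.75), Col6a1 (9.92 ± 5.21) and Col6a2 (6.66 ± 2.74) followed within their spread. Col5a2 (2.76 ± 0.803), Col5a1 (1.80 ± 0.295) and Col12a1 (0.887 ± 0.238) came last, each apart from its upper neighbour by more than the larger SD.

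In old basal cells Col3a1 (3.85 ± 1.67 TPM) and Col1a2 (3.82 ± 2.52) were at the top and Col6a3 (0.650 ± 0.464) and Col5a2 (0.570 ± 0.318) at the bottom. In old luminal cells Col6a3 (7.03 ± 1.84 TPM) was again the highest, and the next 4 genes lay between 2.11 (Col1a1) and 2.52 (Col1a2) TPM. Col12a1 (0.30 ± 0.125) was again the lowest there.

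Ratios between chains were formed within each library from TPM, so that they do not depend on its total. Col1a1 to Col1a2, partner chains of 1 trimer, was 0.878, 1.19 and 1.05 in young basal and 1.15, 1.56 and 1.16 in young luminal libraries. The ratio of the type I chains thus lay between 0.878 and 1.56 in the young libraries. Old libraries scattered more, with 0.267, 0.466 and 0.891 in basal and 15.8, 1.87 and 0.408 in luminal cells, where the 15.8 comes from the library with 6 reads of Col1a2. Col6a3 to Col6a1 was 0.588, 0.783 and 0.220 in the young and 0.218, 0.348 and 0.362 in the old basal libraries. The young luminal libraries had 3.87, 7.86 and 4.92, the old ones 8.38, 4.82 and 3.20. Every luminal ratio was above every basal ratio at both ages (2-sided exact permutation p = 0.1 at each age, the smallest that 3 against 3 libraries allow). Old and young libraries overlapped in this ratio in both cell types (exact permutation p = 0.3 and 0.9). In all, 6 pairs of genes were compared in 4 contrasts, and no adjusted p can fall under 0.1.

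The estimated number of distinct fragments sets how firmly each gene can be read. Over the 3 libraries of a group, the 9 genes had 15.7 (Col5a2) to 96.1 (Col12a1) fragments in young and 6.2 (Col5a2) to 70.5 (Col12a1) in old basal cells. In luminal cells the range was 17.9 (Col12a1) to 834.1 (Col6a3) at 3 months and 3.3 (Col5a2) to 86.2 (Col6a3) at 24 months. These counts also follow library size: the old basal libraries held more fragments in all (669232 to 1449767) than the young basal ones (376373 to 564923), so the fragment counts are a depth and not a level. When reads were divided by the reads per fragment before the fit, 11199 genes were tested and 6 of the 9 collagens were called lower with age in each cell type, where 1.34% of all genes were called lower in basal and 1.49% in luminal cells. In basal cells these were Col1a1, Col1a2, Col3a1, Col5a2, Col6a2 and Col12a1, with adjusted p from 7.04e-05 to 0.036. In luminal cells they were Col1a1, Col1a2, Col3a1, Col5a2, Col6a1 and Col6a3, with adjusted p from 2.77e-09 to 0.0187. Col5a1 was called in neither cell type (adjusted p = 0.0557 and 0.166).

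**Figure D3:**
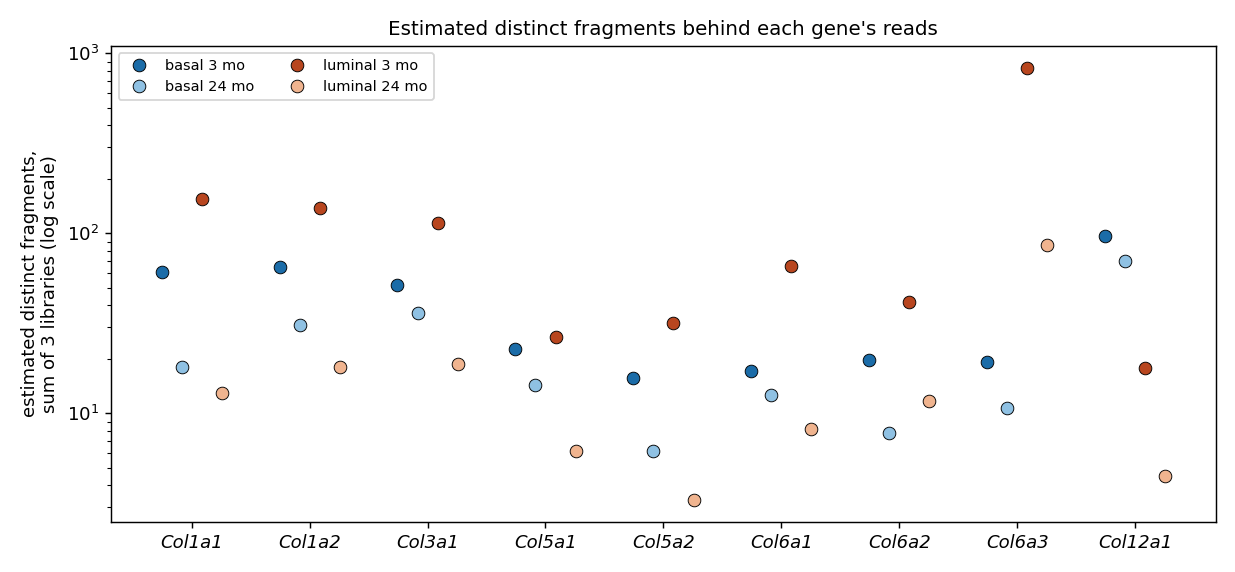
Estimated distinct RNA fragments behind the reads of each gene, summed over the 3 libraries of a group (log axis, no error bars). Col6a3 in young luminal cells, with 834.1 fragments, is the best supported value, and Col5a2 in old luminal cells rests on 3.3 fragments.

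Markers of stromal cells were measured in the same libraries. Of 18 fibroblast markers that are not collagens, the summed level was 1350 to 1680 CPM in the young and 1280 to 1390 CPM in the old basal libraries, and 115 to 267 CPM in the young and 53.2 to 144 CPM in the old luminal ones. None was at 0 in all libraries of a group, except Lum and Twist1 in old basal cells. In basal cells 87.2 to 95.7% of that sum came from 1 gene, Dcn (decorin, a proteoglycan on collagen fibrils), at 1370 ± 167 CPM in young and 1250 ± 61.0 CPM in old basal cells. The other markers were lower. In the 6 basal libraries Fbln2 (a fibulin) was at 89.8 to 95.9 CPM in the young and 8.93 to 16.9 CPM in the old ones, Mgp (matrix Gla protein) at 7.07 to 34.9 CPM and Ogn (osteoglycin) at 4.93 to 21.9 CPM. Fbln1 was at 0.989 to 13.1 CPM, Dpt (dermatopontin) at 0 to 3.56 CPM and Lum (lumican, a fibril proteoglycan) at 0 to 2.70 CPM. These 6 were named after their values were seen. Without Dcn and Fbln2 the sum of the 16 other fibroblast markers was 71.3 to 117 CPM in basal cells at 3 months and 46.3 to 74.6 CPM at 24 months, and 50.9 to 128 and 13.4 to 70.2 CPM in luminal cells.

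Fibroblast markers were mostly lower in old than in young libraries as well, with 13 of 18 below 0 in basal (median log2 change -0.72) and 17 of 18 in luminal cells (median -1.36), and edgeR called 0 of them in either comparison, with 2 and 1 at an unadjusted p under 0.05. In basal cells DESeq2 called 1 (Lum), and limma and the fit to fragment-equivalent counts called 1 (Fbln2). All 3 called 0 in luminal cells. The part that carried-over stromal RNA had in the collagen values was not tested.

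The collagens were then expressed as a share of the fibroblast markers of the same library. The 9 genes together made 20.8, 12.4 and 21.4% of the summed 18 markers in young basal and 2.39, 6.16 and 6.80% in old basal libraries. In luminal cells they made 279, 415 and 318% at 3 months and 107, 70.3 and 84.8% at 24 months. The old libraries were below the young ones in both cell types, and the ratio of the group means was 3.55-fold and 3.85-fold. In basal libraries Dcn alone made 87.2 to 95.7% of this reference, so the basal ratio mainly sets the collagens against Dcn. Without Dcn and Fbln2 in the reference it was 3.17-fold in basal and 2.74-fold in luminal cells. Without Col6a3 and Col12a1, the other 7 genes made 12.6 ± 4.63% in young and 3.27 ± 1.84% in old basal cells, and 134 ± 11.8% in young and 35.8 ± 8.34% in old luminal cells.

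Gene by gene, the ratio to the 18 fibroblast markers had no overlap between ages for 7 of the 9 genes in basal cells (all but Col5a1 and Col6a1) and for 6 in luminal cells (all but Col5a1, Col6a2 and Col12a1), each with the smallest 2-sided exact permutation p that the design allows, 0.1. Of all genes tested, the same ratio was lower in all 3 old libraries for 2.6% in basal and 1.43% in luminal cells. With Dcn and Fbln2 left out of the reference this was so for 8 of the 9 collagens in basal and 5 in luminal cells, against 1.17% and 1.2% of all genes. Col1a1 went from 3.02 ± 1.12% to 0.453 ± 0.354% in basal and from 36.7 ± 5.03% to 6.76 ± 1.71% in luminal cells. Col6a3 went from 198 ± 68.5% to 49.2 ± 23.6% in luminal cells. Between the cell types the same ratio was 10.7-fold higher in luminal than in basal cells at 3 months for the 7 genes together. When Dcn and Fbln2 were left out of the reference, the 7 genes made 218 ± 46.7% in young basal and 278 ± 32.8% in young luminal cells, which overlapped. In old cells they made 63.6 ± 27.5% and 95.9 ± 11% of that reference. Against this reference Col6a3 was still 23.9-fold higher and Col12a1 8.97-fold lower in luminal cells at 3 months.

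Smooth muscle markers gave a second reference. Their sum (12 genes) was 1790 to 2360 CPM in the young and 2120 to 2320 CPM in the old basal libraries, and 125 to 174 CPM and 41.7 to 106 CPM in the luminal ones. Smtn and Tpm2 made 84.5 to 97.0% of it in basal cells. The contractile gene Acta2 (smooth muscle actin) was at 85.9 ± 6.03 CPM in young and 33.7 ± 16.4 CPM in old basal cells and at 26.4 ± 11.6 CPM in young luminal cells. In luminal cells 3 of 11 tested smooth muscle markers were called lower with age: Cnn1 (calponin), from 5.66 CPM to no read in the 3 old libraries, Tagln (transgelin), from 22.1 to 6.12 CPM, and Smtn (smoothelin), from 26.9 to 15 CPM. The edgeR adjusted p were 0.00499, 0.0464 and 0.0489, and 0.394% of all genes were called lower in luminal cells. Tagln lost its call in 8 of 13 other settings and Smtn in 9. In basal cells 0 of 11 were called by edgeR, with 3 at an unadjusted p under 0.05, against 2 by DESeq2 (Myh11 and Tagln) and 0 by limma. On fragment-equivalent counts 3 of 9 tested were called lower there (Acta2, Myh11 and Tagln), against 1.34% of all genes.

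Relative to the smooth muscle sum, the 9 collagens made 13.5 ± 5.09% in young and 3.08 ± 1.42% in old basal cells. In luminal cells they made 391 ± 146% and 139 ± 73.7%. Without Smtn and Tpm2 the sum of the other 10 smooth muscle markers was itself lower in old basal libraries (65.0 to 152 CPM) than in young ones (266 to 297 CPM), and the collagen share of it was 99.0 ± 23.1% in young and 60.8 ± 14.9% in old basal cells. In luminal cells it was 527 ± 205% and 229 ± 157%, and the groups overlapped. The sum of the 7 genes overlapped between ages in both cell types. Gene by gene, 3 of the 9 (Col1a1, Col5a2 and Col12a1) were apart in basal cells and 1 (Col5a2) in luminal cells, against 0.317% and 1.04% of all genes. In basal cells the age difference of the summed collagens was 1.63-fold against these 10 markers and 3.17-fold against the fibroblast markers without Dcn and Fbln2. Against the full sets it was 4.4-fold for smooth muscle and 3.55-fold for fibroblast markers. Which reference gave the smaller difference thus depended on whether the abundant genes were kept.

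**Figure D4:**
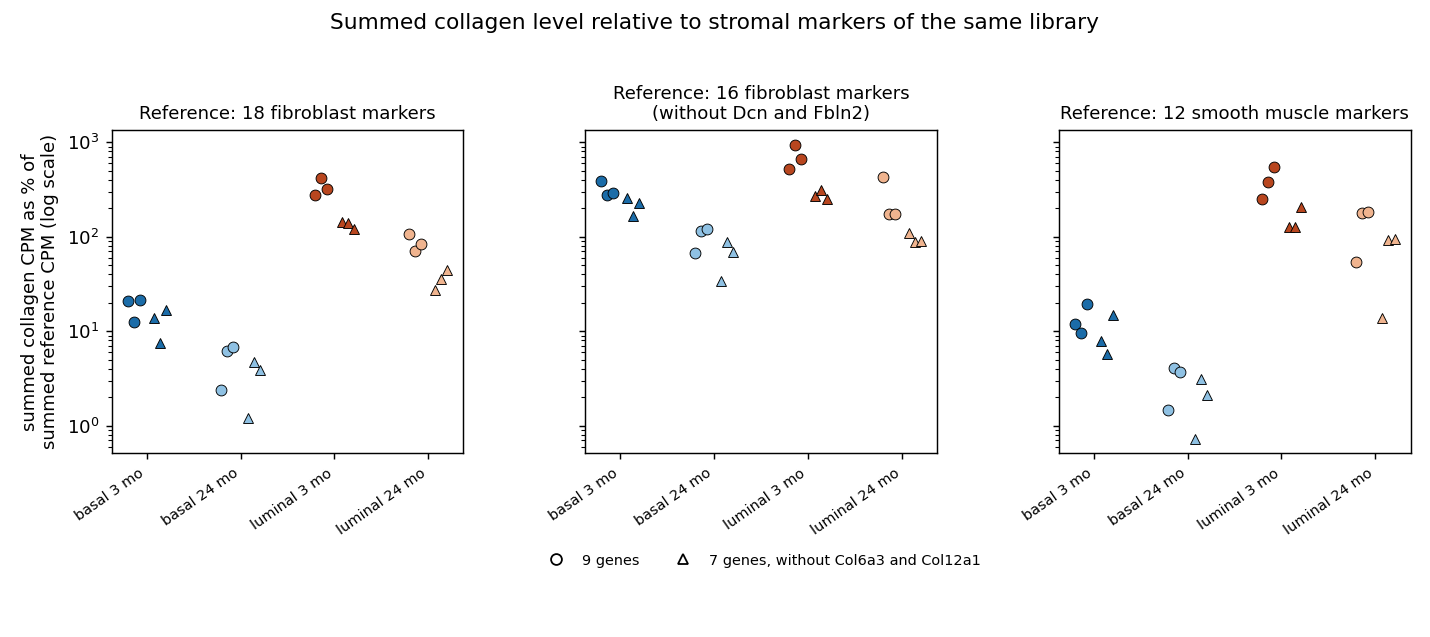
Summed CPM of the 9 genes (circles) and of the 7 genes without Col6a3 and Col12a1 (triangles) as a percent of the summed CPM of stromal markers in the same library (log axis), for 3 sets of markers; each point is 1 library. The young libraries lie above the old ones in each panel for the 9 genes in basal cells, and the triangles of young basal and young luminal cells overlap when Dcn and Fbln2 leave the reference.

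Markers of other stromal and immune cells were summed in the same way. Pericyte markers summed to 4.57 to 41.7 CPM over all libraries, and Kcnj8 was at 0 in all libraries of 3 of the groups. Endothelial markers summed to 41.2 to 87.4 CPM in basal and 3.22 to 15.5 CPM in luminal libraries. For comparison, the 9 collagens summed to 209 to 345 CPM in young and 31.2 to 86.7 CPM in old basal libraries. Pecam1, an endothelial adhesion protein, was called higher in old luminal cells (0 CPM in all 3 young and 0.674, 4.07 and 0.377 CPM in old libraries, edgeR adjusted p = 0.0134). That call was lost with limma, on fragment-equivalent counts and without young luminal replicate 3 (adjusted p up to 0.524), and in the same comparison DESeq2 called 1 endothelial marker higher and 2 lower. Macrophage markers summed to 12.5 to 44.9 CPM, with Adgre1 and Aif1 at 0 in all 12 libraries and Csf1r, C1qa and C1qb at 0 in all basal ones. Schwann cell markers summed to at most 8.10 CPM. None of the pericyte, macrophage and Schwann cell markers was called with age by edgeR, and 0 of them had an unadjusted p under 0.05. Limma and the fragment-equivalent fit called 0 of those they tested, and DESeq2 called 1 higher, a pericyte marker in luminal cells.

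The rest of the collagen family was read from lists of genes. Of 10 basement membrane and anchoring collagens, 3 were called lower with age in basal cells: Col4a1, a chain of the basement membrane network, from 642 to 238 CPM (edgeR adjusted p = 0.0425), Col17a1, the collagen of hemidesmosomes, from 1090 to 635 CPM (0.0304), and Col18a1, the precursor of endostatin, from 2230 to 1340 CPM (0.0438). Their log2 changes of -1.43, -0.78 and -0.73 were smaller than the median of -2.02 of the 9 interstitial genes, and no test of that difference was made. Of all genes, 0.225% were called lower with age in basal cells. All 3 old libraries were below all 3 young ones for 8 of the 10, against 5.68% of all genes. On fragment-equivalent counts 7 of the 10 were called lower in basal cells, beside 6 of the 9 interstitial genes and 1.34% of all genes. Col4a1 and Col18a1 lost the call without any 1 of the 6 basal libraries, with adjusted p up to 0.144, and Col17a1 without young replicate 1 or old replicate 3 (adjusted p up to 0.0854). In luminal cells 1 of the 10, Col17a1, was called higher (0.799 to 2.42 CPM, edgeR adjusted p = 0.00208), where 1.26% of all genes were called higher, and 0 were called lower. The luminal call was lost on fragment-equivalent counts, with limma and when the 2 luminal groups were fitted alone (adjusted p up to 0.814, log2 down to 0.46). Between the cell types, 9 of the 10 were called lower in luminal than in basal cells at 3 months and 8 at 24 months, among them Col4a1 (log2 -5.08 and -4.30), Col17a1 (-10.40 and -8.03) and Col18a1 (-4.19 and -3.40). In this comparison 18.6% of all genes were called lower at 3 months and 19.7% at 24 months.

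Of 25 other collagens, 13 were tested. Col16a1, another fibril-associated collagen, fell in basal cells from 797 to 379 CPM (log2 -1.07, SE 0.19, edgeR adjusted p = 0.011) and was lower in luminal cells at both ages (log2 -6.02 and -5.45). Its call was lost without old basal replicate 1 (adjusted p = 0.0526). Col23a1, a transmembrane collagen, fell in luminal cells from 2.1 to 0.368 CPM (edgeR adjusted p = 0.048), a call that was lost in 7 of 13 other settings. Its basal level was 94.4 CPM at 3 months and 52.4 CPM at 24 months.

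Genes that modify and fold collagen chains showed no call with age. Of 20 tested, edgeR called 0 in either cell type, with 1 in basal and 3 in luminal cells at an unadjusted p under 0.05, and DESeq2 and limma called 0. Serpinh1, the procollagen chaperone of the endoplasmic reticulum, was at 154 ± 22.0 CPM in young and 109 ± 27.2 CPM in old basal cells (log2 -0.49, edgeR adjusted p = 0.589), and at 18.3 and 8.52 CPM in luminal cells (log2 -1.11, adjusted p = 0.204). It was 8.4-fold lower in luminal than in basal cells at 3 months (edgeR adjusted p = 1.36e-05). Of 10 tested genes for processing and cross-linking, 1 was called lower, in luminal cells: Loxl1, a cross-linking oxidase, at 1.81, 4.56 and 4.9 CPM in young and 0, 0 and 0.0471 CPM in old libraries (edgeR adjusted p = 0.0245). That call was lost in 7 of 13 other settings, and 0.394% of all genes were called lower in luminal cells.

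Among 15 partners of fibrils, edgeR called Sparc and Fn1 lower with age in basal cells and Sparc in luminal cells. The log2 changes of 13 of the 15 were below 0 in basal and of 14 in luminal cells. All 3 old libraries were below all 3 young ones for 6 in basal and 3 in luminal cells, against 5.68% and 9.6% of all genes. On fragment-equivalent counts 4 of 12 tested were called lower in basal and 2 in luminal cells, against 1.34% and 1.49% of all genes. Sparc (osteonectin, a collagen-binding matrix protein) fell in basal cells from 534 ± 21.8 to 168 ± 19.2 CPM (log2 -1.67, SE 0.14, edgeR adjusted p = 9.2e-05), and in luminal cells from 41.2 ± 1.43 to 11.8 CPM (log2 -1.80, SE 0.14, adjusted p = 4.98e-05). It was called in each of the 13 other settings in both cell types. Fn1 (fibronectin, on which fibrils assemble) fell in basal cells from 91.6 ± 11.5 to 17.5 ± 3.56 CPM (log2 -2.39, SE 0.28, edgeR adjusted p = 0.00119), and had 46.1 and 41.3 CPM in young and old luminal cells (log2 -0.16, adjusted p = 1). Dcn, the most abundant partner, had log2 changes of -0.13 in basal and -0.60 in luminal cells (edgeR adjusted p = 0.921 and 0.352).

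Of 7 tested collagen receptors, Itga2, an integrin subunit for collagen, was called higher in old luminal cells (2.41 to 12.4 CPM, edgeR adjusted p = 0.0156), with no call in 6 of 13 other settings, among them without young replicate 2 or 3 or old replicate 1. In basal cells edgeR called 0 receptors and 1 had an unadjusted p under 0.05. That one was the collagen uptake receptor Mrc2, named after its values were seen, at 0.0356, 1.64 and 0 CPM in young and 32.4, 23.8 and 37.9 CPM in old basal libraries (edgeR adjusted p = 0.067). DESeq2, limma and the fragment-equivalent fit called it higher. Of all genes, 1.01% were called higher with age in basal and 1.26% in luminal cells. Of 6 tested genes for collagen breakdown, Timp2, an inhibitor of matrix metalloproteinases, was called higher in luminal cells (107 to 164 CPM, edgeR adjusted p = 0.0353) and lost the call in 7 of 13 other settings. The matrix metalloproteinases Mmp8, Mmp9 and Mmp13 were at 0 in all 6 basal libraries.

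**Figure D5:**
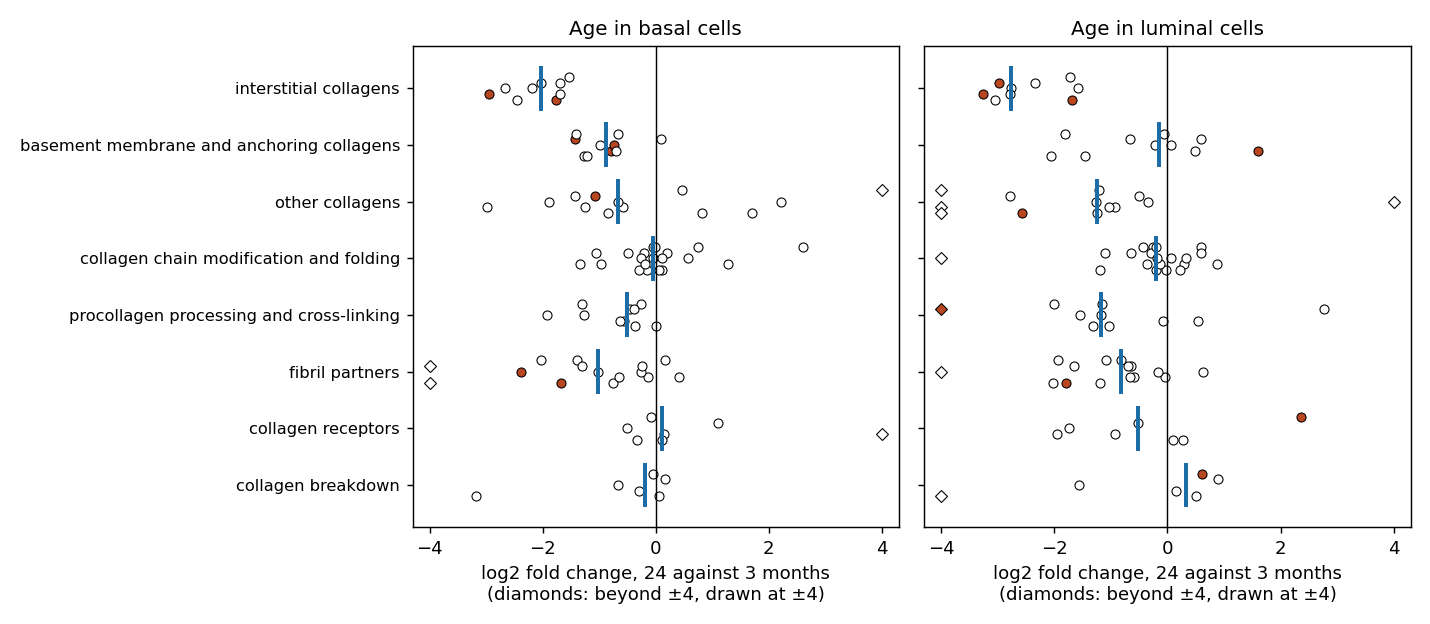
Log2 fold changes with age for the tested genes of 8 collagen-related lists, in basal (left) and luminal cells (right); each circle is 1 gene, filled where the edgeR adjusted p is under 0.05, diamonds mark values beyond the axis, and blue bars are medians. The interstitial collagens have medians of -2.02 and -2.77, and the genes for chain modification and folding have medians of -0.04 and -0.20. Between them lie fibril partners (-1.02 and -0.82), other collagens (-0.67 and -1.24) and processing and cross-linking genes (-0.50 and -1.17). Basement membrane and anchoring collagens have medians of -0.88 and -0.15, receptors 0.12 and -0.53, and breakdown genes -0.18 and 0.33.

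The 9 genes were not one block across the libraries. Over the 12 libraries, log2 CPM of Col1a2 and Col3a1 correlated at Pearson r = 0.97, Col1a2 and Col5a2 at 0.95 and Col1a1 and Col6a1 at 0.94. Col6a3 correlated with the chains of the same type at 0.67 (Col6a1) and 0.72 (Col6a2), and with Col12a1 at -0.42. With the summed level of all 9 genes, Col6a1 (0.97) and Col1a1 (0.96) correlated most and Col12a1 (0.24) least. These values describe 12 libraries that fall into 4 groups and share the age and cell type differences given above, so no p is attached.

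Of 9863 other genes with a mean of at least 5 CPM, the 8 whose log2 CPM was most like the summed level of the 9 collagens over the 12 libraries were Ccnd1 (cyclin D1, r = 0.94), 1110004E09Rik (0.87), Serping1 (the C1 inhibitor, 0.86), Mki67 (the proliferation antigen Ki-67, 0.86), Col15a1 (a basement membrane zone collagen, 0.85), Qser1 (0.84), Gm16515 (0.83) and Ephb6 (an ephrin receptor, 0.83). Ccnd1 had group means of 399 and 247 CPM in young and old basal cells and of 511 and 230 CPM in luminal cells. Those of Mki67 were 10.6 and 1.32 CPM in basal and 36.1 and 5.04 CPM in luminal cells. Both were highest in young luminal cells and lower in the old than in the young group means of each cell type, the same order as the summed collagens at 3 months. The likeness is given without a p and says nothing of shared function.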

How the data were processed

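RNA was extracted from frozen pellets of sorted cells and made into libraries with a stranded kit with mRNA enrichment and PCR, per the labels' protocols. The submitters' processing notes name bcl2fastq 2.17, Bowtie2 2.1.0, RSEM 1.2.15 and the build mm10. Per the file headers, the deposited tables hold RSEM expected counts, TPM and FPKM for each gene (FPKM not used here). The sort gates, and whether counting used strand, were not given in the sources used here. Labels do not tie libraries to named mice, and p-values measure the spread between pooled libraries.

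Expected counts were rounded and filtered with filterByExpr (minimum count 10, minimum total 15), which kept 14201 genes, and scaled by TMM. Samples were grouped by their labels. An edgeR 4.0.16 quasi-likelihood fit (R 4.3.3) over all 12 libraries was tested in 5 contrasts, with Benjamini-Hochberg adjustment over all genes. Genes were called at an adjusted p under 0.05. The common biological coefficient of variation was 0.797. Means and SDs are of CPM or deposited TPM over 3 libraries. The fit was checked on simulated counts. Reads per distinct fragment were the median count of genes over 500 bases with at least 8 reads in a library, none in the others of its group and reads in at most 3 other libraries. Fragment-equivalent counts used a minimum count of 3 and total of 10. DESeq2 1.42.0, limma 3.58.1 on log2(TPM + 1), no filter, other scaling, a replicate block, the groups compared alone and leaving out libraries were alternatives.

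The 9 genes, the lists and the alternatives were chosen with earlier results of these data known. Named beside the 9 are list genes called in an age comparison (at most 4 a list), Dcn, Sparc, Fn1, Serpinh1, Acta2, Krt5 and the 8 genes most like the sum. The file symbols are older for 6 listed genes, which were matched by synonym. The lists were interstitial, basement membrane and anchoring, and other collagens, chain modification and folding, processing and cross-linking, fibril partners, receptors, breakdown, and markers of fibroblasts, smooth muscle, pericytes, endothelium, macrophages, Schwann cells, basal and luminal epithelium.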

Additional observations from a re-analysis of the deposited data

Results flagged for a closer look

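The difference of the 2 age responses (luminal minus basal, tested as an interaction in the edgeR fit) passed for 5 of the list genes and markers named above, and for none of the 9 interstitial collagens. Of all 14201 genes tested, 0.817% passed in either direction. Col17a1 had a difference of 2.38 on the log2 scale (edgeR adjusted p = 0.00368), lower in all 3 old basal libraries and higher in all 3 old luminal libraries, where its level was at most 2.74 CPM. Fn1 had a difference of 2.23 (edgeR adjusted p = 0.017), with a fall in basal cells and 46.1 and 41.3 CPM in young and old luminal cells. The basal keratin Krt15 had a difference of 1.55 (edgeR adjusted p = 0.0312), with 3620 and 3910 CPM in young and old basal cells and 136 and 433 CPM in luminal cells.

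Cnn1 and Pecam1 had fitted differences of -8.86 and 8.90 (edgeR adjusted p = 0.0376 for each). Both values depend on the prior count, since Cnn1 had no read in the old luminal and Pecam1 none in the young luminal libraries.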

How the results depend on the processing

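The log2 age changes of the 9 genes were below 0 in both cell types under all other settings and with any 1 library left out, whereas their calls moved. The number called lower in basal cells (2) became 1 with only the 2 groups fitted and 6 on fragment-equivalent counts, and 0 to 2 with 1 library left out. In luminal cells (3) it became 6 with DESeq2, 5 without a filter, 6 on fragment-equivalent counts and 1 to 5 with 1 library left out. Of all genes, those called lower in basal cells were 65 of 12394 with only the 2 groups fitted and 150 of 11199 on fragment-equivalent counts. In luminal cells they were 205 of 16878 with DESeq2, 73 of 16878 without a filter and 167 of 11199 on fragment-equivalent counts. With 1 library left out they were 15 to 37 in basal and 24 to 80 in luminal cells. Over all genes, the calls with age in basal cells (176) became 664 with DESeq2, 315 on fragment-equivalent counts, 104 with limma and 73 to 266 with 1 library left out. In luminal cells (235) they became 650 with DESeq2, 551 on fragment-equivalent counts and 124 to 331. Calls of unequal age responses (116) became 536 with DESeq2 and 54 to 172 with 1 library left out. The basal split of 144 higher and 32 lower was 85 and 53 with DESeq2's size factors, 131 and 62 without a filter, 57 and 47 with limma, 165 and 150 on fragment-equivalent counts and 61 and 65 with only the 2 groups fitted, and the split at 24 months of 2226 and 2802 was 2484 and 2497. The cause of these moves was not tested.

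Deviations from the group means of libraries with the same replicate number correlated at r from -0.097 to 0.071 between ages and from -0.02 to 0.052 between young basal and young luminal cells (over 6270 genes). Between old basal and old luminal cells r was 0.055, 0.158 and 0.159, and each old library correlated best with its own number, a hint of pairing from the data that the labels do not state. Since not every pair was above 0.1, the numbers were not used as pairs. With a replicate block, 5 of the 9 genes were called lower in luminal and 3 in basal cells. Of all 14201 genes, 56 in luminal and 41 in basal cells were called lower in that fit. Calls in either direction numbered 194 in basal and 273 in luminal cells, and 4900 between old luminal and old basal cells (5028 without the block). The difference of the age responses of Col5a1 was 0.10 with the block.

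Values that missed the threshold changed sign as follows. The difference of the age responses was 0.10 (Col1a1), 0.47 (Col5a1) and 0.05 (Col5a2) with limma, and 0.19 (Col5a1) and 0.10 (Col5a2) on fragment-equivalent counts. Luminal against basal at 3 months, limma gave -0.02 (Col1a1), -0.31 (Col1a2), -0.19 (Col3a1), -0.29 (Col5a2) and -0.21 (Col6a2). At 24 months fragment-equivalent counts gave 0.17 (Col5a2) and 0.07 (Col6a1), and DESeq2 and its size factors gave 0.05 (Col6a1). With 1 library left out, the difference of the age responses ran from -0.25 to 0.53 (Col12a1), -0.72 to 0.20 (Col1a1), -2.18 to 0.07 (Col1a2), -0.71 to 1.42 (Col5a1) and -1.89 to 0.01 (Col5a2). Luminal against basal ran at 3 months from -0.13 to 0.49 (Col1a2), -0.20 to 0.79 (Col3a1), -0.15 to 0.32 (Col5a2) and -0.12 to 0.73 (Col6a2). At 24 months it ran from -0.35 to 0.66 (Col1a1), -2.0 to 0.18 (Col1a2), -0.77 to 0.11 (Col3a1), -1.42 to 0.63 (Col5a1), -1.76 to 0.10 (Col5a2) and -0.70 to 0.26 (Col6a1).

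The log2 age change of the ratio of the 9 genes to the fibroblast markers (-1.83 in basal, -1.95 in luminal cells) was -0.70 in basal cells against smooth muscle markers without Smtn and Tpm2. In luminal cells it was -1.49 against all smooth muscle markers, -1.45 against fibroblast markers without Dcn and Fbln2 and -1.20 against smooth muscle markers without Smtn and Tpm2, where the log2 age change of the Col5a1 ratio was 0.27, higher in old cells. The references without these genes were chosen after seeing the data. Depth limits the precision in old luminal cells, where 8 of the 9 genes, all but Col6a3, rested on 3.3 to 18.7 estimated distinct fragments, and in old basal cells, where Col5a2 rested on 6.2.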
